A study of Mus musculus with 6 samples.

Results

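The long intergenic noncoding RNAs (lincRNAs) expressed in γδ thymocytes numbered 228 of the 5386 genes that the gene tables class as lincRNA, and of 41195 genes in all. They were selected on their measured levels: a member had to reach 1 CPM (counts per 1000000, that is, the total gene reads of the gene over all gene reads of the library, scaled to 1000000) in 3 or more of the 6 libraries. RNA-seq of poly(A) RNA had been made from γδ thymocytes, thymus cells carrying the γδ T cell receptor that were enriched with magnetic beads. Of the 6 libraries, 3 came from Nfatc1fl/fl control mice, in which exon 3 of both Nfatc1 alleles is flanked by loxP sites, and 3 from Rag1Cre-Nfatc1fl/fl mice, which carry the same alleles plus a Cre recombinase expressed from the Rag1 locus, active in early lymphocytes. The methods of the study describe mice of 4 to 6 weeks on a C57/B6 background, matched for sex and age. Nothing in the labels says whether the 3 libraries of a genotype came from separate animals, so the tests measure the spread between these libraries, which may be technical. The libraries held 20734771 to 22638531 gene reads, of which 94.1% to 95.4% were unique. The third Rag1Cre-Nfatc1fl/fl library stood apart: the chi-square of gene counts per degree of freedom was 64.0 and 71.3 between it and the others of its genotype and 7.95 to 17.9 between all other pairs of 1 genotype. The whole-gene counts could not check the deletion of exon 3: Nfatc1 itself, counted over the whole gene, had 202, 217 and 213 CPM in the control libraries and 367, 429 and 283 CPM in those labelled Rag1Cre-Nfatc1fl/fl.

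A lincRNA is transcribed by RNA polymerase II from its own locus between protein-coding genes and is often capped, spliced and polyadenylated like an mRNA. Some lincRNAs act in the nucleus, on chromatin, on splicing bodies or on a neighbouring gene, others bind RNAs or proteins in the cytoplasm, and others serve mainly as the precursor from which a small nucleolar RNA (snoRNA) or a microRNA is cut. In lymphocytes lincRNAs are known to be more restricted to a cell type and a stage than mRNAs are, and many lie beside genes for transcription factors or signalling proteins.

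Start sites of the lincRNAs were compared with RefSeq on GRCm38.p6, the build that the gene tables use. A promoter window of 250 bases before and 50 bases after a RefSeq start was matched for 111 members, and for 98 it belonged to a start within 1 kb of the one in the gene tables. Of the 5 windows below, 4 belong to members on which the genotype comparison turns, 1 lower and 3 higher in the Rag1Cre-Nfatc1fl/fl libraries. The fifth, that of Gm13652, is shown because in the gene tables it lies between a pair of lincRNAs that start back to back. They are printed 5′ to 3′ on the strand of the lincRNA, and the capitals mark the letters GGAAA or, on the other strand, TTTCC, the core of the sequence that NFAT proteins are known to bind. They lie at chr9:112234027-112234326 (plus strand, 2900079G21Rik), chr19:11050517-11050816 (minus, AW112010), chr17:52149039-52149338 (plus, Gm19585), chr11:71033568-71033867 (minus, 6330403K07Rik) and chr2:75137926-75138225 (minus, Gm13652).
2900079G21Rik: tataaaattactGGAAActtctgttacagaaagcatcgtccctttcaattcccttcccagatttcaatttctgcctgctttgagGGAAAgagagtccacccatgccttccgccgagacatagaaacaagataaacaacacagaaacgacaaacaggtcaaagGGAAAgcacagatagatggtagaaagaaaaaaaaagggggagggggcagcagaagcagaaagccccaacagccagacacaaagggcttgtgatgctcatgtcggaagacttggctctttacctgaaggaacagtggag
AW112010: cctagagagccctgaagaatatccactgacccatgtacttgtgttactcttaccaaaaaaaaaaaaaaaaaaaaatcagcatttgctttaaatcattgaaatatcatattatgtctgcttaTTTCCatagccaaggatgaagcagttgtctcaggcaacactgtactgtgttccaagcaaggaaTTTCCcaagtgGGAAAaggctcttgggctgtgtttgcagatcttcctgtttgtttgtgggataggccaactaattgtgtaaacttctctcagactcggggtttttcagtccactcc
Gm19585: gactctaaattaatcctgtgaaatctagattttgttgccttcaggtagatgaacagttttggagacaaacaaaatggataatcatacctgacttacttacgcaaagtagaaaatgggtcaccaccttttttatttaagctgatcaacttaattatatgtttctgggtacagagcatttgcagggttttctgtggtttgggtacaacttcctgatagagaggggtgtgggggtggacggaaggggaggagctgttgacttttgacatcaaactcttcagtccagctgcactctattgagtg
6330403K07Rik: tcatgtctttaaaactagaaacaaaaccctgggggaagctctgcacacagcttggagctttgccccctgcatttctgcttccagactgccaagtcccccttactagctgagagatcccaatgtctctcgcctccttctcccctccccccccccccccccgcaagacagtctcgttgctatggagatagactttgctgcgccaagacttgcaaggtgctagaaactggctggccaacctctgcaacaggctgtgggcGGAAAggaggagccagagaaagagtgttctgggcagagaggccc
Gm13652: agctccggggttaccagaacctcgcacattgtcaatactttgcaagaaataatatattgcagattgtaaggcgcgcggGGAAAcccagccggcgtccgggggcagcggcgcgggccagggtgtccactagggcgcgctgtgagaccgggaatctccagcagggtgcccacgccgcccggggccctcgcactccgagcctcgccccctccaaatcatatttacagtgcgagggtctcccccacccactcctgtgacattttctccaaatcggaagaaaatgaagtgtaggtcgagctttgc
The core, searched as GGAAA on both strands with overlapping matches counted, occurred 3 times in the windows of 2900079G21Rik and AW112010, 1 time in those of 6330403K07Rik and Gm13652, and 0 times in that of Gm19585. It was held by 58.2% of the 98 member windows and by 61.3% of all 32851 RefSeq windows of the same length, and the longer TGGAAA by 20.4% and 21.4%. A match is a description of the letters and not a binding site. The median G and C content was 53.8% in the member windows and 52.7% in all windows, and the median ratio of observed to expected CpG was 0.599 and 0.384.

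As a class the 228 lincRNAs were scarce, short and rich in intron reads. Their mean level over the 6 libraries had a median of 2.66 CPM, with a range from 0.577 to 283 CPM, against a median of 29.7 CPM for the 11387 protein-coding genes that met the same level rule. Per length the same order held: in transcripts per 1000000 (TPM, recomputed from exon reads and exon length) the medians were 1.98 and 15.9. The median exon length was 2011.5 bases in the lincRNAs and 4393 bases in the protein-coding genes. Just 6 members had a mean of 100 CPM or more, 42 had 10 CPM or more, and 85 lay under 2 CPM. Of the 228, 149 reached 1 CPM in all 6 libraries, 30 in 5, 29 in 4 and 20 in 3.

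Together the lincRNAs took a similar, small part of the reads in both genotypes. Their share of all gene reads was 0.259% ± 0.0096 (SD, n = 3) in the control libraries and 0.257% ± 0.011 (SD, n = 3) in the Rag1Cre-Nfatc1fl/fl libraries, a difference smaller than either SD. In exon reads alone the shares were 0.200% and 0.198%. Without the most abundant member, Gm42418, they were 0.234% and 0.226%.

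Much of what was counted for these genes came from outside their annotated exons. The median share of intron reads was 17.99% of a member's total gene reads, against 1.44% for the protein-coding genes, and 75 members had more than 50% intron reads. Among those 75 were 19 that overlap a protein-coding gene, and 65 of the 228 had no read across an exon-exon junction. Strand was not kept in these libraries, and reads inside a lincRNA intron may therefore belong to any gene that overlaps it. Reads of repeated sequence bore on fewer members: 139 had at least 99% unique reads, 19 had under 50%, and Gm26778, AC163280.1 and Gm26508 had no unique read.

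**Figure D1:**
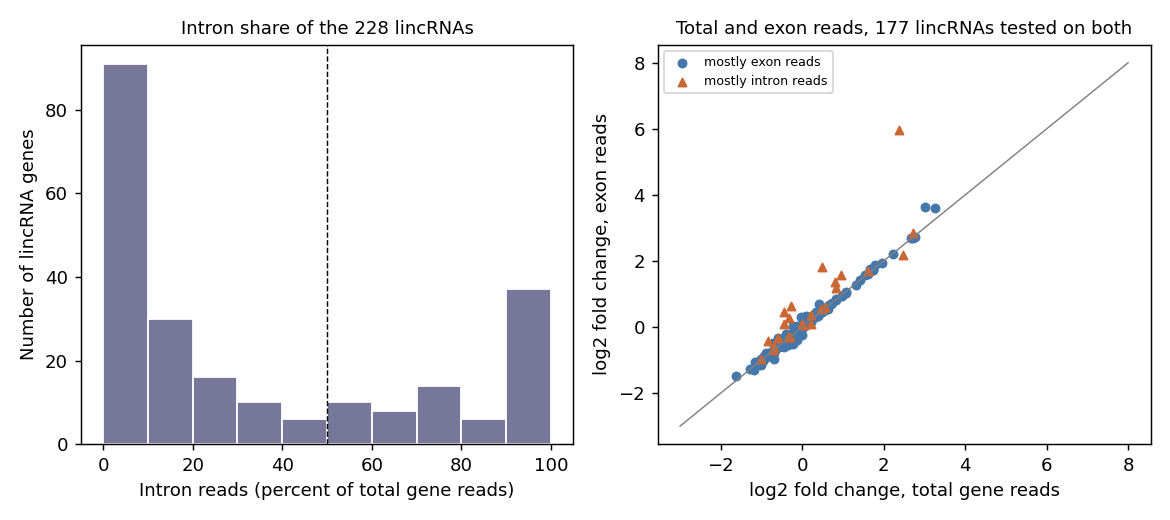
Left, the number of lincRNA genes (y axis) by the intron share of their total gene reads (x axis, percent, bars 10 points wide), with a dashed line at 50%. Right, log2 fold change of Rag1Cre-Nfatc1fl/fl over control from exon reads (y) against that from total gene reads (x) for members tested on both that had more than 3 control reads, with the line of equality; 75 members lie right of the dashed line, and 2600014E21Rik, at 2.38 on total and 5.97 on exon reads, lies farthest above the line of equality.

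By position, 44 of the 228 overlapped a protein-coding gene in spite of their class, 87 lay less than 10 kb from one, 74 lay 10 to 100 kb away and 23 lay farther. The median gap was 3.96 kb. Relative to that nearest gene, 122 members were on the opposite strand and 106 on the same one. Chromosome 5 held the most members, 23, followed by chromosome 17 with 19. The level rule cut through a continuum: the third-highest library was at 1.009 CPM for 1700123J17Rik and 1.012 CPM for A930029G22Rik and Gm29243 just inside it, and at 0.983 CPM for Gm17315, 0.972 CPM for Gm36287 and 0.965 CPM for Gm26751 just outside.

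The most abundant members by CPM were a mixed group of a ribosomal locus, conserved cytoplasmic RNAs and genes without a settled function. Gm42418 (chr17:39846958-39848788, plus strand), which overlaps ribosomal RNA sequence, had 215, 259 and 266 CPM in the control libraries and 251, 270 and 436 CPM in the Rag1Cre-Nfatc1fl/fl libraries, and 43.4% of its reads were unique. The genotypes overlapped, with the third Rag1Cre-Nfatc1fl/fl library far above the others. Its neighbour Gm26917 (chr17:39843013-39846341) had 112, 136 and 113 CPM against 161, 153 and 157 CPM, and differed by 0.49 ± 0.10 (SE) on the log2 scale, with an adjusted p of 0.011 in edgeR's quasi-likelihood test, adjusted by Benjamini-Hochberg over all genes tested, just above the threshold of 0.01.

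2900097C17Rik (chr2:156388065-156392979, minus strand) is the mouse counterpart of NORAD, a cytoplasmic RNA that binds Pumilio proteins. It had 248, 256 and 286 CPM in the control and 248, 252 and 207 CPM in the Rag1Cre-Nfatc1fl/fl libraries, and the genotypes overlapped. 1700020I14Rik, known as Cyrano or Oip5os1, a conserved RNA with a site that triggers the decay of a microRNA, had 188, 206 and 218 CPM against 165, 163 and 136 CPM, without overlap (log2 fold change -0.30 ± 0.09 (SE), adjusted p 0.047 in edgeR, above the threshold). The remaining ones above 100 CPM in the mean were AU020206, with 136 to 156 CPM in the control and 131 to 256 CPM in the Rag1Cre-Nfatc1fl/fl libraries, and AI504432, which is described with the lower members. Gm13849 reached a mean of 102 CPM in the control libraries and 62.6 CPM in the Rag1Cre-Nfatc1fl/fl libraries with 100% intron reads, so that none of these reads lay in its annotated exons. Tmem250-ps, next by mean CPM, had 60.3, 64.3 and 65.3 CPM against 66.6, 59.6 and 66.5 CPM. Per length the order was different: Gm42418 led with a mean of 385 TPM, followed by AC161763.1, a single exon of 168 bases, with 297 TPM and by AW112010 with 189 TPM.

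None of the tested nuclear and dosage-linked lincRNAs was called between the genotypes by edgeR. Xist, the RNA that coats the inactive X chromosome, had 0 reads in every library, which allows up to 0.145 CPM at 3 reads in the shallowest library, and was therefore no member. Malat1, an abundant RNA of nuclear speckles, had 56.7, 49.4 and 127 CPM in the control libraries and 39.1, 39.05 and 36.7 CPM in the Rag1Cre-Nfatc1fl/fl libraries. Every Rag1Cre-Nfatc1fl/fl library was below every control library, but the third control library was far above the other 2, and the difference was not called (log2 fold change -0.92 ± 0.33 (SE), adjusted p 0.078 in edgeR, and a log2 fold change of -0.37 without that library). Neat1, the scaffold of paraspeckles, went the other way, with 4.59, 4.31 and 4.34 CPM against 6.21, 8.18 and 6.03 CPM. The libraries did not overlap, and its log2 fold change of 0.72 ± 0.17 (SE) missed the threshold at an adjusted p of 0.020 in edgeR, though it passed when the third Rag1Cre-Nfatc1fl/fl library was left out and with DESeq2. Jpx and Ftx, which lie next to Xist on the X chromosome, were between 1.21 and 2.49 CPM in every library, and H19, an imprinted RNA, was at 17.9 to 21.1 CPM with a log2 fold change of 0.02 ± 0.09 (SE). The genes listed for this role numbered 13, members or not, of which 10 were tested. Of these, edgeR called 0, beside 9.98% of all 13185 tested genes called in either direction. At an unadjusted p under 0.05 in edgeR were 5 of the 10, and limma-voom called 0 and DESeq2 2. The 9.98% is edgeR's share at its calling thresholds. No share of all genes at an unadjusted p, in DESeq2 or in limma-voom was taken, here or for the counts below.

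The members that host snoRNAs had levels from 0.957 to 12.8 CPM in the mean, and none was called by edgeR's test. Snhg6 had 12.1, 7.34 and 13.2 CPM in the control and 14.7, 15.2 and 14.0 CPM in the Rag1Cre-Nfatc1fl/fl libraries, and Snhg12 had 4.59, 6.97 and 5.26 CPM against 6.21, 7.68 and 7.67 CPM. The genotypes did not overlap for Snhg6 and did for Snhg12, with log2 fold changes of 0.53 ± 0.21 and 0.46 ± 0.20 (SE). Epb41l4aos was at 7.66 to 8.94 CPM in the control and 8.46 to 10.5 CPM in the Rag1Cre-Nfatc1fl/fl libraries, and Dancr_1 at 1.24 to 1.88 CPM and 1.74 to 1.98 CPM. Of 22 genes listed as snoRNA hosts, whatever their class, 15 were tested and 0 were called by edgeR, beside 9.98% of all tested genes. At an unadjusted p under 0.05 were 7 of the 15, and limma-voom called 0 and DESeq2 2. All tested hosts but Snhg10 (-0.11) and Snhg17 (-0.064) had a log2 fold change above 0, among them Snhg15 (0.83), Snhg5 (0.61) and Gas5 (0.53). The share of all tested genes above 0 was not taken, and their median was -0.0069. For Zfas1 and Snhg1 only Rag1Cre-Nfatc1fl/fl replicate 3 lay above the control libraries, and the others of its genotype lay below them. The values were 56.1 CPM against 38.3 to 41.5 CPM for Zfas1 and 19.6 CPM against 14.3 to 16.2 CPM for Snhg1.

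MicroRNA hosts among the members were 6 by position, when a RefSeq hairpin on the same strand inside the gene was counted. Mir142hg carries miR-142, a microRNA of blood cells, and H19 carries miR-675. Their mature forms are printed 5′ to 3′ with the seed, bases 2 to 8, in capitals, because these are the products the hosts are known for, although poly(A) libraries do not measure them.
mmu-miR-142a-5p: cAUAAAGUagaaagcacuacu
mmu-miR-142a-3p: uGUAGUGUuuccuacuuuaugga
mmu-miR-675-5p: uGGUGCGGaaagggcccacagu
mmu-miR-675-3p: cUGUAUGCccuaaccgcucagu
Mir142hg (chr11:87755577-87757270, plus strand) had 14.3, 11.7 and 24.1 CPM in the control and 14.8, 16.1 and 21.9 CPM in the Rag1Cre-Nfatc1fl/fl libraries. The genotypes overlapped, and 98.7% of its reads were intron reads by the annotation used. Of 12 genes listed as microRNA hosts, 3 were tested and 0 were called by edgeR, DESeq2 or limma-voom, with 1 at an unadjusted p under 0.05, beside 9.98% of all tested genes called by edgeR.

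The lists of growth-linked and immune lincRNAs held 1 of the called members, Pvt1. Lncpint, a p53 target, was at 0.618, 1.01 and 0.969 CPM in the control and 2.02, 2.32 and 1.74 CPM in the Rag1Cre-Nfatc1fl/fl libraries, all higher, with 91.5% intron reads (log2 fold change 1.32 ± 0.28 (SE), adjusted p 0.014 in edgeR, not called). Gm14005, known as Morrbid, lies 15772 bases from Bcl2l11, the gene of the death factor Bim, which it is known to repress in myeloid cells and T cells. It had 1.68, 1.38 and 1.01 CPM against 2.67, 2.32 and 2.36 CPM, without overlap but above the threshold (log2 fold change 0.95 ± 0.26 (SE), adjusted p 0.034 in edgeR). Lockd, downstream of the cell-cycle inhibitor gene Cdkn1b, had 29.4 to 30.0 CPM in the control and 27.8 to 42.3 CPM in the Rag1Cre-Nfatc1fl/fl libraries, and Mirt1 had 2.38 to 4.11 CPM and 2.51 to 2.81 CPM. Of the 8 growth-linked genes found under their listed names, 6 were tested. Of these, 2 were called higher by edgeR, Pvt1 and the non-member Ptprv, against 6.47% of all tested genes called higher. At an unadjusted p under 0.05 were 3, and limma-voom called 2 and DESeq2 3, Lncpint among them. 1700020I14Rik, listed there as Oip5os1, was not matched by name and is not in these counts. It was not called by edgeR. The 12 genes on the immune list do not include AW112010, a called member described below. Of these 12, 4 were tested and 0 were called by edgeR, DESeq2 or limma-voom, with 1 at an unadjusted p under 0.05 in edgeR. Of all tested genes, edgeR called 9.98%.

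The comparison of the genotypes across all expressed lincRNAs asked which of them differ when Nfatc1 is deleted from early lymphocytes on. It was fitted on all 13185 tested genes with edgeR, and calls used the thresholds of the study, an adjusted p below 0.01 with a log2 fold change above 0.5 or below -0.5. Of all tested genes 9.98% were called, 6.47% higher and 3.51% lower in the Rag1Cre-Nfatc1fl/fl libraries. Of the 215 members that reached 1 CPM in at least 1 library of each genotype, 15 (6.98%) were higher, 4 (1.86%) were lower and 196 were not called, so their share of higher calls was near that of all genes. Their median log2 fold change was -0.02, and that of all tested genes was -0.0069 with the TMM scaling used and -0.11 with library size alone. The other 13 members reached 1 CPM in 1 genotype only, 11 of them in the Rag1Cre-Nfatc1fl/fl libraries. Those had to differ in their level to be members at all, so they are given by their values, with no test. A member of the 215 could still owe its place to the genotype where it is high, since 1 library of the other genotype was enough. Of the 149 members at 1 CPM in all 6 libraries, 10 (6.71%) were higher and 4 (2.69%) were lower. The common biological coefficient of variation was 0.154.

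The count of calls changed when single libraries were left out. Over all 228 members, with those at 1 CPM in 1 genotype included, the fit called 25 higher and 4 lower (10.96% and 1.75%, against 6.47% and 3.51% of all tested genes). Without 1 library in turn it called 11 to 29 higher and 1 to 6 lower. Each such fit also has fewer libraries in 1 group, and that loss cannot be told apart from the part of the library left out. The lowest count of higher members, 11, came without control replicate 1, and the highest, 29, came without Rag1Cre-Nfatc1fl/fl replicate 3, the library that stood apart; that fit called 6 lower. All 19 called members with both genotypes at 1 CPM kept their sign in each of these fits, and 7 of them kept their call in all 6.

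**Figure D2:**
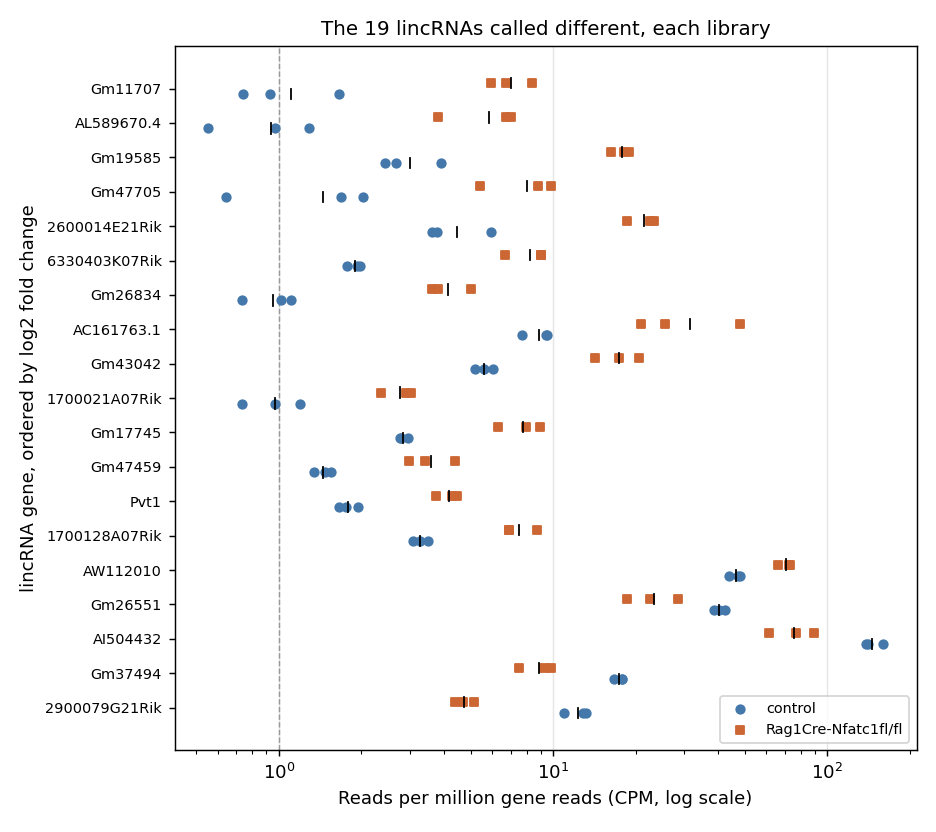
CPM (x axis, log scale) of each library for the 19 lincRNAs (y axis, ordered by log2 fold change) that reached 1 CPM in both genotypes and were called: circles, control libraries, squares, Rag1Cre-Nfatc1fl/fl libraries, short lines, means of 3, dashed line, 1 CPM. The 4 lowest rows, with Gm26551 nearest to 0, are lower in the Rag1Cre-Nfatc1fl/fl libraries and the 15 above them are higher, and in no row do the symbols of the 2 genotypes overlap.

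Marker genes of other cell types also differed in level between the libraries. The summed level of 6 B cell markers was 227 to 238 CPM in the control and 108 to 125 CPM in the Rag1Cre-Nfatc1fl/fl libraries, and nearly all of it was Ighm and Cd79b, with the other 4 under 1 CPM in every library. That of 9 macrophage and dendritic cell markers was 18.5 to 83.1 CPM and 47.7 to 232 CPM, highest in Rag1Cre-Nfatc1fl/fl replicate 3. Sums for 9 genes of double-positive αβ thymocytes were 1668 to 1687 CPM and 1123 to 1761 CPM, for 8 genes of γδ T cells 3209 to 3427 CPM and 2825 to 3044 CPM, for 6 erythroid genes 4.13 to 29.7 CPM and 7.64 to 47.9 CPM, and for 6 thymic epithelial genes 19.1 to 21.2 CPM and 8.04 to 10.4 CPM, most of the last from Epcam. Within the αβ and γδ lists genes went different ways. Among the αβ genes, most of the sum came from Trbc1 and Trbc2. Cd8a had 46.8 to 56.5 CPM in the control and 69.5, 30.8 and 124 CPM in the Rag1Cre-Nfatc1fl/fl libraries, and Dntt 253 to 299 CPM and 113 to 211 CPM. Among the γδ genes, Trdc had 199 to 214 CPM and 85.3 to 127 CPM, and Cd3d 462 to 494 CPM and 568 to 784 CPM. The γδ thymocytes themselves differ in make-up by the study's flow cytometry: more of them carried the transcription factor PLZF and the CD4 co-receptor in Rag1Cre-Nfatc1fl/fl mice. The part of these cell types and of that make-up in the lincRNA differences was not tested. In bulk RNA fewer cells of a type and less RNA per cell cannot be told apart.

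Of the 4 members that fell, 1 overlapped the 5′ end of a protein-coding gene expressed in these cells and 1 lay beside a potassium channel gene. 2900079G21Rik (ENSMUSG00000087038, chr9:112234277-112348925, plus strand), whose promoter window is printed above, starts within Arpp21 on the opposite strand. It had 12.8, 11.0 and 13.1 CPM in the control libraries and 4.69, 4.38 and 5.16 CPM in the Rag1Cre-Nfatc1fl/fl libraries. The genotypes were far apart, and the log2 fold change was -1.27 ± 0.15 (SE), with an adjusted p of 0.0012 in edgeR, and the call was kept in all 6 fits without 1 library. Spliced reads moved with it, 216 across exon-exon junctions in the 3 control libraries together and 73 in the 3 Rag1Cre-Nfatc1fl/fl libraries. Arpp21, a gene for a cAMP-regulated phosphoprotein, had 49.3, 40.0 and 41.1 CPM against 30.1, 18.4 and 21.4 CPM and was not called, with an adjusted p of 0.014 and a log2 fold change of -0.81 ± 0.18 (SE).

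AI504432 (ENSMUSG00000056145, chr3:107039504-107054347, plus strand) was the most abundant called member. Its levels were 138, 141 and 159 CPM in the control and 89.2, 76.6 and 61.2 CPM in the Rag1Cre-Nfatc1fl/fl libraries. The groups did not overlap, and the log2 fold change was -0.85 ± 0.12 (SE), with an adjusted p of 0.0024 in edgeR. It was kept without Rag1Cre-Nfatc1fl/fl replicate 1 or 3 but not without any of the other 4 libraries, where the adjusted p was 0.012 to 0.016. It starts 1434 bases downstream of Kcna3 on the same strand. Kcna3, which encodes a voltage-gated potassium channel of T cells, fell too, from 60.5, 54.6 and 68.6 CPM to 34.1, 28.0 and 28.1 CPM (log2 fold change -0.93 ± 0.12 (SE), adjusted p 0.0014 in edgeR, and 0.010, not kept, without control replicate 1). Of the exon-exon reads of AI504432, 303 were in control and 115 in Rag1Cre-Nfatc1fl/fl libraries.

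Gm37494 and Gm26551 were the other lower members. Gm37494 (chr7:39544402-39580589) had 16.6, 17.8 and 17.8 CPM in the control and 9.84, 9.29 and 7.52 CPM in the Rag1Cre-Nfatc1fl/fl libraries, with 100% unique reads and a difference of -0.87 ± 0.11 on the log2 scale (SE, adjusted p 0.0017 in edgeR); without any 1 control library the adjusted p was 0.011 to 0.014. Its nearest protein-coding gene, Zfp619, had 0.707 to 1.66 CPM and 0.386 to 0.874 CPM and was not called. Gm26551 had 40.3, 42.2 and 38.5 CPM against 28.5, 22.7 and 18.6 CPM. Of its reads 98.9% were intron reads, and its body spans Cdkl3, Ppp2ca and other genes, so these reads cannot be assigned to the lincRNA alone. Its call (log2 fold change -0.70 ± 0.13 (SE), adjusted p 0.0073 in edgeR) was not kept without any 1 control library or without Rag1Cre-Nfatc1fl/fl replicate 2, where the adjusted p was 0.029 to 0.038.

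Among the 15 higher members, Gm19585 showed the smallest adjusted p. Gm19585 (ENSMUSG00000100150, chr17:52149289-52163048, plus strand) had 2.43, 3.90 and 2.68 CPM in the control libraries and 18.1, 18.9 and 16.3 CPM in the Rag1Cre-Nfatc1fl/fl libraries. Each Rag1Cre-Nfatc1fl/fl library was far above each control library, and the log2 fold change was 2.67 ± 0.18 (SE), with an adjusted p of 9.3e-05 in edgeR. It was kept in all 6 fits without 1 library, and exon-exon reads numbered 117 in the control and 762 in the Rag1Cre-Nfatc1fl/fl libraries. Its nearest protein-coding gene, 315999 bases away, is Satb1, a chromatin organiser of thymocytes, whose log2 fold change was 0.10 ± 0.10 (SE).

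AW112010 was the most abundant higher member and is known as an RNA of activated and inflammatory lymphoid and myeloid cells, from which a small protein is translated. It had 47.4, 48.0 and 43.7 CPM in the control libraries and 66.3, 72.7 and 72.9 CPM in the Rag1Cre-Nfatc1fl/fl libraries. The groups did not overlap, though the change was the smallest among the higher members (log2 fold change 0.71 ± 0.10 (SE), adjusted p 0.0021 in edgeR). Exon-exon reads were many, 1334 and 2056. The call was not kept without any 1 control library or without Rag1Cre-Nfatc1fl/fl replicate 2, where the adjusted p was 0.012 to 0.016.

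Gm43042, 6330403K07Rik and Gm17745 rose from low but well-counted levels. Gm43042 (chr5:59569702-59574242, minus strand) had 5.21, 5.59 and 6.04 CPM against 14.2, 17.4 and 20.6 CPM, with 0.0668% intron reads, no exon-exon read and a difference of 1.74 ± 0.19 on the log2 scale (SE, adjusted p 0.00070 in edgeR). 6330403K07Rik, which RefSeq lists as protein coding, had 1.77, 1.93 and 1.98 CPM against 6.67, 9.07 and 9.02 CPM (log2 fold change 2.23 ± 0.21 (SE), adjusted p 0.00044 in edgeR). Both were kept in all 6 fits without 1 library. Gm17745 had 2.96, 2.80 and 2.77 CPM against 6.30, 7.95 and 8.97 CPM, with 80 and 210 exon-exon reads. Its log2 fold change was 1.55 ± 0.20 (SE, adjusted p 0.0017 in edgeR), and the adjusted p was 0.011 to 0.012 without any 1 control library.

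Gm11707 and AL589670.4 had the highest fold changes of the members at 1 CPM in both genotypes, from control levels near 1 CPM. Each reached 1 CPM in 1 control library only, so it is a member through the Rag1Cre-Nfatc1fl/fl libraries, where it is high. The adjusted p of each carries that limit. The same caution holds for 1700021A07Rik and Gm26834 below, which also had a control library under 1 CPM. Gm11707 (chr11:106972058-106973090, minus strand) had 0.928, 1.65 and 0.738 CPM in the control and 5.93, 8.40 and 6.75 CPM in the Rag1Cre-Nfatc1fl/fl libraries, a difference of 2.77 ± 0.31 on the log2 scale (SE, adjusted p 0.00083 in edgeR) that was kept in all 6 fits. AL589670.4 had 0.972, 1.28 and 0.554 CPM against 6.76, 7.01 and 3.81 CPM (log2 fold change 2.73 ± 0.34 (SE), adjusted p 0.0014 in edgeR). Of the reads of AL589670.4 87.4% were intron reads, the call was not kept on exon reads (adjusted p 0.021), and the adjusted p was 0.011 without control replicate 1. Neither Kpna2, 15539 bases from Gm11707, nor Ankrd54, 1918 bases from AL589670.4, was called (log2 fold changes of 0.07 and 0.11). AC161763.1, 463 bases from Oraov1, had 7.73, 9.45 and 9.50 CPM against 20.9, 25.6 and 48.1 CPM, with the third Rag1Cre-Nfatc1fl/fl library the highest (log2 fold change 1.95 ± 0.33 (SE), adjusted p 0.0052 in edgeR, and 0.011 to 0.031, not kept, without any 1 control library or Rag1Cre-Nfatc1fl/fl replicate 2). The remaining higher members were 1700128A07Rik (3.09 to 3.49 CPM and 6.90 to 8.76 CPM, with 99.9% intron reads), Gm47459 (1.34 to 1.55 CPM and 2.99 to 4.38 CPM), 1700021A07Rik (0.734 to 1.19 CPM and 2.36 to 3.03 CPM) and Gm26834 (0.734 to 1.11 CPM and 3.63 to 5.004 CPM, with 97.3% intron reads). Gm26834 kept its call in all 6 fits, while the call of 1700128A07Rik was lost without control replicate 1 or 3 (adjusted p 0.012 in both, edgeR), that of Gm47459 without any 1 control library or Rag1Cre-Nfatc1fl/fl replicate 2 (0.023 to 0.027), and that of 1700021A07Rik without any 1 library other than Rag1Cre-Nfatc1fl/fl replicate 3 (0.013 to 0.024).

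**Figure D3:**
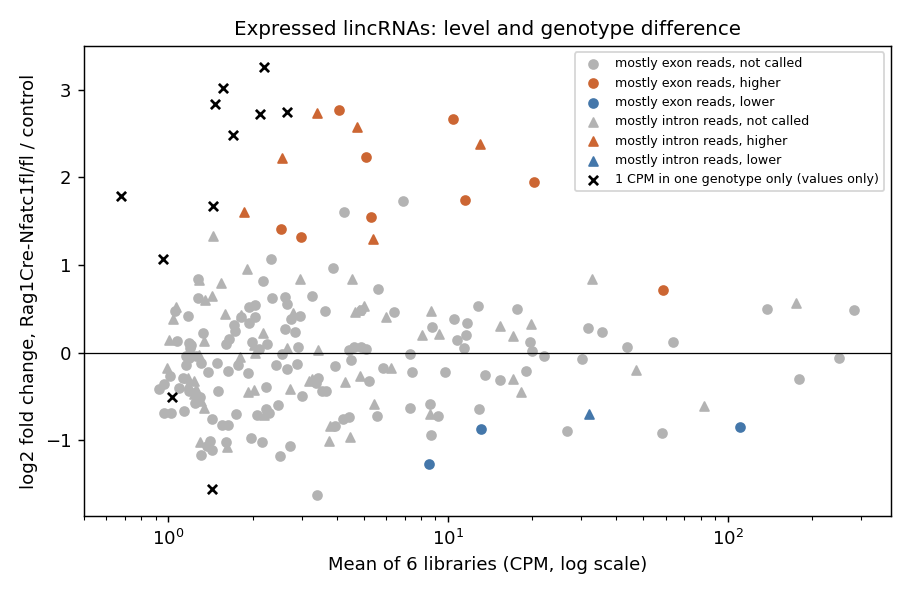
Log2 fold change of Rag1Cre-Nfatc1fl/fl over control (y axis) against the mean CPM of the 6 libraries (x axis, log scale) for the lincRNAs: circles, at most 50% intron reads, triangles, more than 50%, orange, called higher, blue, called lower, grey, not called, crosses, members at 1 CPM in 1 genotype only. Gm29687 and Gm34099, with 0 and 1 control reads, are not drawn; the 4 lower members have means of 8.53 CPM or more, while most of the higher ones lie under 10 CPM.

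A pair of lincRNAs on chromosome 2 that start back to back in the gene tables had higher levels in every Rag1Cre-Nfatc1fl/fl library. 2600014E21Rik (ENSMUSG00000100303, chr2:75138843-75317820, plus strand) and Gm13652 (chr2:75124871-75137798, minus strand) have gene-table start sites 1045 bases apart on opposite strands. The window printed for Gm13652 lies between these gene-table starts. RefSeq, however, puts the promoter window of 2600014E21Rik at chr2:75137405-75137704, 1188 bases from its gene-table start. By RefSeq starts the genes overlap at their 5′ ends, and the printed window lies inside 2600014E21Rik. 2600014E21Rik had 3.62, 3.76 and 5.95 CPM in the control and 18.5, 22.7 and 23.4 CPM in the Rag1Cre-Nfatc1fl/fl libraries (log2 fold change 2.38 ± 0.22 (SE), adjusted p 0.00036 in edgeR, kept in all 6 fits without 1 library). Gm13652 reached 1 CPM in the Rag1Cre-Nfatc1fl/fl libraries only and is given without a test: 0.530, 0.367 and 0.415 CPM against 4.14, 4.87 and 2.89 CPM.

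Exon reads gave 2600014E21Rik a much larger difference than all of its reads did. Of its total reads 77.8% were intron reads and 55.9% were unique. Its exon reads numbered 3, 2 and 1 in the control libraries and 106, 151 and 111 in the Rag1Cre-Nfatc1fl/fl libraries, and 4 exon-exon reads in the former stood against 180 in the latter. The log2 fold change on exon reads was 5.97, with an adjusted p of 4.8e-05 in edgeR. The nearest protein-coding gene, Mtx2, which encodes a mitochondrial outer membrane protein, is 260412 bases away and had a difference of 0.50 ± 0.17 on the log2 scale (SE, adjusted p 0.067 in edgeR).

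Across the members, most of the calls on total reads were also made on exon reads. On exon reads 178 members were tested, of which 170 were at 1 CPM in both genotypes, with 9 higher and 3 lower; of all 12532 genes tested on exon reads 9.93% were called, 6.45% higher and 3.49% lower. Of the 19 called members at 1 CPM in both genotypes, 12 kept their call, 4 had too few exon reads to be tested and 3 did not pass: Pvt1, 1700021A07Rik and AL589670.4. Of the members at 1 CPM in both genotypes, 69 had mostly intron reads, with 6 higher and 1 lower on total reads, and 146 mostly exon reads, with 9 higher and 3 lower.

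The neighbourhood of Id2 was looked at after its values were seen, because 3 members lie on 1 side of it. Id2 encodes an inhibitor of E proteins that is known for its part in innate-like lymphocytes. It rose from 62.0, 69.2 and 61.0 CPM to 275, 320 and 292 CPM, a difference of 2.31 ± 0.10 on the log2 scale (SE, adjusted p 1.8e-05 in edgeR). Gm47705 (chr12:25181768-25189630, plus strand), 84628 bases from Id2, had 1.68, 0.642 and 2.03 CPM against 5.43, 8.85 and 9.84 CPM, without overlap (log2 fold change 2.57 ± 0.41 (SE), adjusted p 0.0041 in edgeR). Just 3.73% of the reads of Gm47705 were unique, it lies within Gm36287, a lincRNA just outside the level rule with means of 1.04 and 1.01 CPM (log2 fold change 0.03), and the adjusted p was 0.013 to 0.022 without control replicate 1, control replicate 3 or Rag1Cre-Nfatc1fl/fl replicate 2.

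The other 2 members beyond Id2 were higher in every Rag1Cre-Nfatc1fl/fl library as well. AC163354.1, 206.8 kb from Id2, had 3.80, 4.91 and 1.34 CPM in the control and 12.2, 10.8 and 8.34 CPM in the Rag1Cre-Nfatc1fl/fl libraries, with 99.9% unique reads. Its log2 fold change of 1.73 ± 0.39 (SE) missed the threshold at an adjusted p of 0.016 in edgeR. Gm29687, 995 kb from Id2, had 0 reads in the 3 control libraries together and 2.81, 2.10 and 1.83 CPM, 146 reads, in the Rag1Cre-Nfatc1fl/fl libraries, at least 49.6-fold higher against a floor of 3 reads over the group, and is given without a test. Its nearest protein-coding gene is Rnf144a, a ubiquitin ligase gene, with a difference of 0.52 ± 0.12 on the log2 scale (SE, adjusted p 0.018 in edgeR). On the other side of Id2, Rrm2 at 208 and 195 CPM and Kidins220 at 80.9 and 63.0 CPM in the means of the control and the Rag1Cre-Nfatc1fl/fl libraries were not called. Grhl1, on that side too, had means of 0.121 and 2.30 CPM and was called higher (log2 fold change 4.28 ± 0.41 (SE), adjusted p 0.00044 in edgeR).

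**Figure D4:**
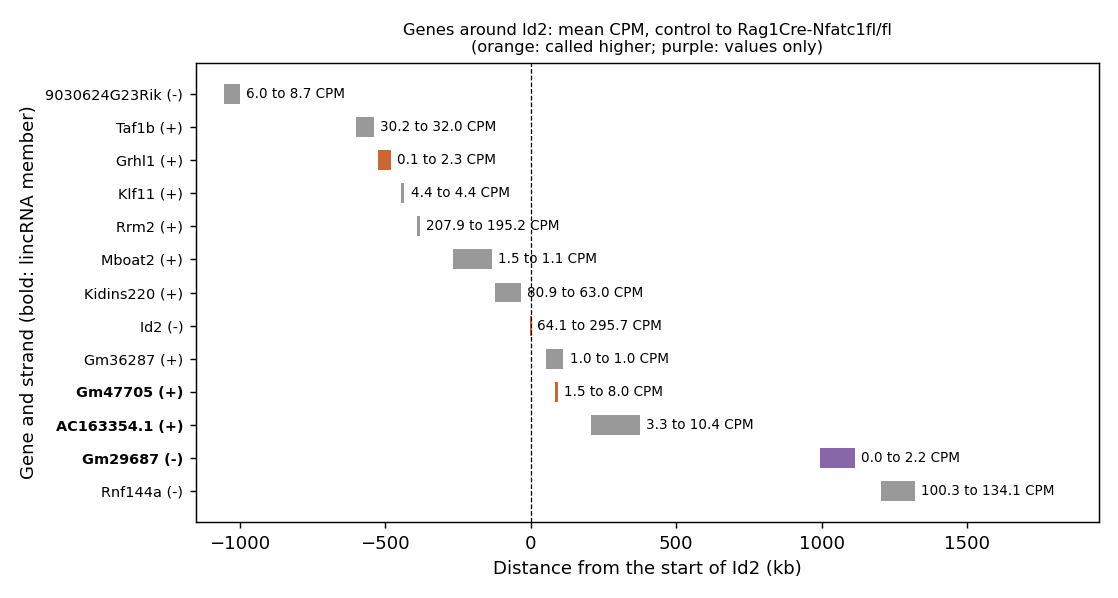
Genes around Id2, 1 row each, drawn to scale as the distance from the start of Id2 in kb (x axis); names carry the strand, bold names are members, the numbers beside each bar are the mean CPM of the 3 control and of the 3 Rag1Cre-Nfatc1fl/fl libraries, orange bars were called higher, grey bars were not called, and the purple bar is Gm29687, given by its values. Id2 rose from a mean of 64.1 to 296 CPM, Gm47705, AC163354.1 and Gm29687 lie to its right, and Grhl1, to its left, was called higher as well.

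Pvt1 rose beside Myc. Pvt1 (ENSMUSG00000097039, chr15:62037986-62378096, plus strand), a long gene that is known to be co-amplified with Myc in tumours, had 1.94, 1.65 and 1.75 CPM in the control and 4.46, 3.75 and 4.29 CPM in the Rag1Cre-Nfatc1fl/fl libraries (log2 fold change 1.32 ± 0.20 (SE), adjusted p 0.0031 in edgeR). Myc, 47612 bases away on the same strand, had 52.8, 56.1 and 48.8 CPM against 100.5, 112 and 85.7 CPM (log2 fold change 1.02 ± 0.10 (SE), adjusted p 0.00058 in edgeR). For neither gene did the genotypes overlap. For Pvt1 the adjusted p was 0.013 on exon reads, and 0.012 to 0.019 without any 1 control library or without Rag1Cre-Nfatc1fl/fl replicate 1.

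Among the members at 1 CPM in both genotypes, 4 pairs of a lincRNA and its nearest protein-coding gene were both called. Of these, 3 moved in the same direction, Pvt1 with Myc and Gm47705 with Id2 higher and AI504432 with Kcna3 lower. In the opposed pair, Gm43042 rose while Pcdh7, a protocadherin gene 1436472 bases away, went from 0.928, 0.734 and 0.876 CPM to 0.138, 0 and 0.0965 CPM, a call that was kept without Rag1Cre-Nfatc1fl/fl replicate 3 only (adjusted p 0.018 to 0.039 without each other library).

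A further 3 lincRNAs that reached 1 CPM in the Rag1Cre-Nfatc1fl/fl libraries only lay beside a gene called higher and are given by their values. Gm12596 lies 37218 bases from Ugcg, the glucosylceramide synthase gene, and had 0.177, 0.504 and 0.415 CPM against 2.07, 3.35 and 2.89 CPM, while Ugcg had 105, 122 and 90.8 CPM against 284, 325 and 167 CPM. A630023P12Rik lies 18375 bases from Galnt9, an O-glycosylation enzyme gene, and had 0.442, 0.413 and 0.784 CPM against 2.39, 3.04 and 3.13 CPM, while Galnt9 had 0, 0.0917 and 0.277 CPM against 4.37, 6.43 and 5.16 CPM. 2810429I04Rik lies 36670 bases from Gdi2, which encodes a regulator of Rab proteins, and had 0.550 to 0.839 CPM against 1.84 to 2.41 CPM, with 479 to 535 CPM and 684 to 718 CPM for Gdi2. The calls of Ugcg and Gdi2 were not kept without 5 and 4 of the 6 libraries in turn, any control library and Rag1Cre-Nfatc1fl/fl replicate 2 among them (adjusted p 0.011 to 0.028), and that of Gdi2 was not kept with library size alone.

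The signs of lincRNA and neighbour were then compared over the pairs of members at 1 CPM in both genotypes. Of 171 pairs with both genes tested, 104 (60.8%, 95% Wilson interval 53.3% to 67.8%, which takes pairs as independent) had log2 fold changes of the same sign, with a Spearman rho of 0.35 across pairs. These pairs share the same 6 libraries and, where genes overlap, some reads, and the value is a description. In the 99 pairs with mostly exon reads and no overlap the share was 57.6% (47.7% to 66.8%) with a rho of 0.28, and in the 34 overlapping pairs it was 67.6% (50.8% to 80.9%). The nearest protein-coding genes of all 228 members, 169 distinct genes tested, were higher in 13 cases (7.69%) and lower in 16 (9.47%), against 6.47% and 3.51% of all genes. Unlike the pairs above, these include neighbours of members that reached 1 CPM in 1 genotype only, among them Ugcg, Galnt9 and Gdi2, all called higher. Without 1 library in turn the counts of higher and lower neighbours ran from 4 to 17 and from 4 to 20, the lowest of both without control replicate 1.

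**Figure D5:**
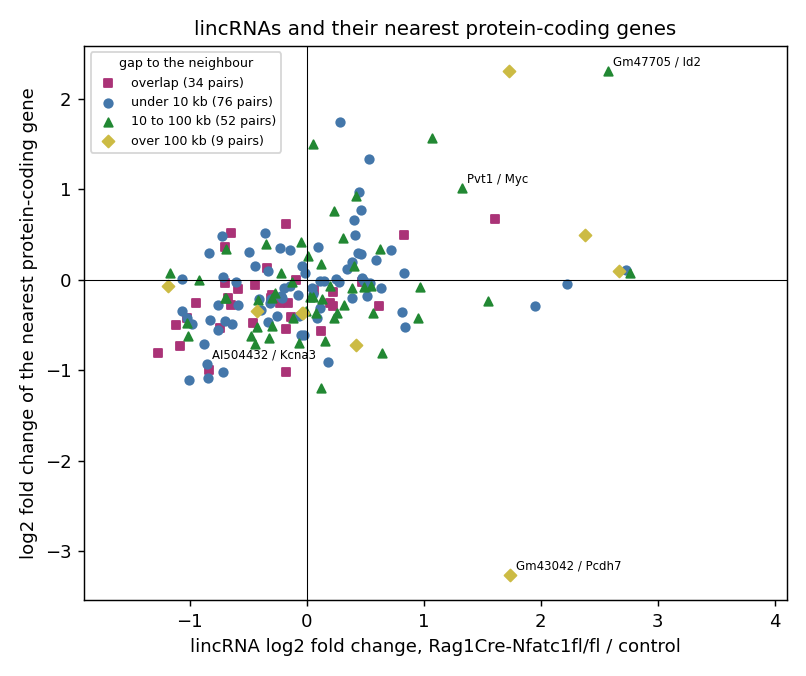
Log2 fold change of Rag1Cre-Nfatc1fl/fl over control for each lincRNA at 1 CPM in both genotypes (x axis) and for its nearest protein-coding gene (y axis), with the symbol giving the gap between them. Names mark the 4 pairs of which both genes were called, Pvt1 with Myc and Gm47705 with Id2 in the upper right, AI504432 with Kcna3 in the lower left and Gm43042 with Pcdh7 in the lower right.

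By distance, called members lay at every range from a protein-coding gene. Of the members at 1 CPM in both genotypes, 0 of 44 overlapping a protein-coding gene were called higher by edgeR (3 were higher at an unadjusted p under 0.05, DESeq2 called 1 and limma-voom 0), and 3 of 86 within 10 kb, 7 of 64 at 10 to 100 kb and 5 of 21 farther away were, against 6.47% of all tested genes. The 4 lower members were 2 overlapping ones and 2 within 10 kb, against 3.51% of all tested genes. These counts are given without a test.

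The members that reached 1 CPM in the Rag1Cre-Nfatc1fl/fl libraries only were led by Gm29687 and Gm34099. Gm34099 (chr8:57403104-57415052, plus strand) had 1 read in the 3 control libraries together and 74 reads in the Rag1Cre-Nfatc1fl/fl libraries, 1.15, 1.21 and 1.06 CPM, a ratio of 75.4 with an exact 95% interval of 13.1 to 3019 that covers counting error only. It was spliced, with 53 exon-exon reads, and its nearest protein-coding gene, Scrg1, did not pass the filter on low counts. 8030442B05Rik, 37144 bases from Prkcq, the gene of protein kinase C theta, had 0.928, 0.871 and 0.369 CPM against 4.46, 6.25 and 3.04 CPM, all of it intron reads. Gm20755 had 0.133, 0.734 and 0.277 CPM against 2.71, 2.90 and 2.07 CPM, while its neighbour Gm5148 was not called (log2 fold change 0.27), and Gm47015 had 0.459 to 0.751 CPM against 3.26 to 4.20 CPM. Gm29243 and Snhg20 were at 1.01 to 1.06 CPM and 1.20 to 1.40 CPM in the Rag1Cre-Nfatc1fl/fl libraries. Just 2 members, Gm45881 and Gm29811, reached 1 CPM in the control libraries only.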

How the data were processed

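Poly(A) RNA libraries of γδ thymocytes, 3 per genotype, were sequenced as single-end reads. The authors' methods name cutadapt for trimming, STAR with build GRCm 38 for alignment, featureCounts for counting and DESeq2 for testing. The files the authors deposited give whole-number counts per gene, namely total and unique reads over the gene, its exons, its exon junctions and its introns. Since the files are not laid out as featureCounts writes them, the counter behind them stays unknown from the sources read here. The TPM and RPKM columns of the authors were not used; TPM recomputed from exon reads and exon length lay within 1% of the deposited value for 100% of values above 0.1. Total gene reads are exon plus intron reads, and the kit does not mark strand.

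Members, lists and tests were chosen with earlier results of these data known. CPM is total gene reads over the column sum. Genes passing filterByExpr (13185) went into the quasi-likelihood test of edgeR 4.0.16 under R 4.3.3 (TMM scaling, Benjamini-Hochberg adjustment across the genes tested), with DESeq2 1.42.0 and limma-voom 3.58.1 as alternatives; SE is the log2 fold change over the root of F. On data simulated for this comparison, with 13172 genes tested, 100% of genes changed 4-fold, 76% of those changed 2-fold and 14% of those changed 1.5-fold were recovered. The changed genes were a sample of genes of any class. Every simulated gene had the common coefficient of variation, and no simulated library stood apart. Recovery among lincRNAs alone was not measured. The nearest protein-coding gene was the one with the smallest gap in the gene tables. The text names the 10 members with the highest mean CPM, the called members with the 8 largest increases and the 8 largest decreases (of which there were 4), the members on role lists and the neighbours of these; other names were chosen after their values were seen. Depth was 20734771 to 22638531 gene reads, and intervals and floors cover counting error only. Promoter and microRNA sequences are from RefSeq on GRCm38.p6. Python 3.11.15 was used for the rest.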

Additional observations from a re-analysis of the deposited data

How the results depend on the processing

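Over all 228 members 25 were higher and 4 lower, but 10 of the 25 reached 1 CPM in 1 genotype only and had to differ. At 1 CPM in both genotypes 15 (6.98%) were higher, against 6.47% of all tested genes. Total exon reads gave 15 higher (only 178 members could be tested), and members with mostly exon reads, an alternative added after seeing the data, 15. Membership at 1 CPM in all 6 libraries gave 10 of 149 (6.71%). That rule removes the members of 1 genotype by design. It also removes members with only some libraries under 1 CPM, the called Gm11707 and AL589670.4 among them. DESeq2 called 14 lower and an adjusted p under 0.05 called 18 lower; the cause was not tested. Without 1 library in turn, higher members ran from 11 to 29, lower ones from 1 to 6, higher neighbours from 4 to 17 and lower neighbours from 4 to 20. The lincRNA share of reads was 0.200% and 0.198% (control and Rag1Cre-Nfatc1fl/fl) in exon reads, 0.240% and 0.236% in unique reads and 0.234% and 0.226% without the most abundant member. Among log2 fold changes near 0, the sign turned for Cdkl3 on unique reads (0.015) and exon reads (0.0077), for Gm5148 on exon reads (-0.205) and, with library size alone, for H19 (-0.083), Jpx (-0.057) and Kpna2 (-0.032). It also turned without 1 library in turn, where values ran from -0.12 to 0.091 for Cdkl3, -0.0058 to 0.044 for H19, -0.10 to 0.17 for Jpx, -0.047 to 0.24 for Kpna2, -0.19 to 0.012 for Ftx, -0.29 to 0.13 for Mirt1, -0.037 to 0.55 for Mir142hg and -0.10 to 0.0018 for 2900097C17Rik. Of the other values of named genes under an alternative, 50 lost and 12 gained the call and 708 kept direction and side.

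Replicate numbers did not pair the libraries (correlations of deviations 0.026, 0.18 and 0.0055). With the replicate number as a block, 23 members were higher and 5 lower, and 13 neighbours were higher and 16 lower; of the named genes Pcdh7 lost its call (log2 fold change -3.31) and Arpp21 gained one (-0.82).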
